A study of Mus musculus with 6 samples.

Results

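The VPS13 and ATG2 genes encode very long proteins that form bridges between organelles and carry phospholipids across the gap. The 6 mouse genes of this group, Vps13a, Vps13b, Vps13c, Vps13d, Atg2a and Atg2b, were selected by gene symbol, at a time when earlier results of the genotype comparison were known. All 6 were found among the 14015 genes with a symbol in the table of injured muscle. Levels are in CPM, the reads of a gene scaled to a common library size. The study's methods describe a filter of more than 1 CPM in at least 3 samples; as the lowest mean listed is -4.08 log2 CPM and values per sample were not analysed, how many of the 6 genes met it in which samples was not checked. The samples were quadriceps muscles taken 7 days after volumetric muscle loss, a surgical removal of part of the muscle, with no implant in either group. There were 3 samples from WT mice and 3 from mice labelled GATA-1 mutant. The study calls the latter ΔdblGATA, a strain that lacks eosinophils because a GATA-binding site that drives Gata1 in that lineage is deleted. The study's methods describe the WT animals as young adult female C57BL/6 mice and do not give the age or sex of the mutants. According to those methods, wounds without ECM were filled with saline.

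The value used here is 1 mean per gene, the authors' mean log2 CPM over the WT and GATA-1 mutant samples together. It has no replicate error, so no order of levels can be set against the spread between mice. It also averages the genotypes, so it cannot show a difference between WT and GATA-1 mutant mice. It gives a listed level for each gene, not for each transcript, in this injured muscle. The depth of each sample is unknown. The authors' columns on the genotype difference were not used here, and values per mouse were not analysed here.

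Bridge-like lipid transfer proteins are rods with a hydrophobic groove along their length. A conserved stretch at the N-terminal end takes up lipid from the donor membrane, usually the endoplasmic reticulum, and the far end is held at the acceptor membrane. VPS13 proteins serve mitochondria, endosomes, lysosomes, the Golgi apparatus and lipid droplets, and ATG2 proteins feed the growing autophagosome, the vesicle that encloses material for degradation. In people, loss of VPS13A causes chorea-acanthocytosis, a disease of the nervous system, red blood cells and muscle.

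The length of these genes sets how their levels can be read, since a longer transcript gives more fragments per molecule. In the GENCODE M21 annotation (GRCm38) the longest transcripts were 10.84 kb for Vps13a, 13.76 kb for Vps13b, 11.53 kb for Vps13c, 15.85 kb for Vps13d, 6.37 kb for Atg2a and 7.55 kb for Atg2b. Among the 13944 listed genes with an annotated length, Vps13d was longer than 99.7% and Atg2a, the shortest of the group, longer than 87.6%. All but Atg2a were in the longest 10% of listed genes, which began at 6.83 kb. The coding parts were long as well, with 3166 codons for Vps13a, 3993 for Vps13b, 3748 for Vps13c and 4390 for Vps13d, against 1914 for Atg2a and 2075 for Atg2b. The longest transcript had 72 exons in Vps13a, 62 in Vps13b, 85 in Vps13c and 70 in Vps13d, and 40 in Atg2a and 42 in Atg2b.

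On the mean log2 CPM scale, Vps13d was listed at 6.10, Atg2a at 5.09, Vps13c at 4.62, Vps13b at 4.15, Vps13a at 3.80 and Atg2b at 3.38. The median of all 14015 genes was 4.03, and 4 of the 6 genes were above it. These values were not corrected for length here and are therefore not taken as an order of abundance between the genes. Whether the authors' values were already scaled for length is not given. If they were, the per-kilobase values here and below correct for length again, and the uncorrected order would be the one to read. Per kilobase of the longest transcript, the order was Atg2a, Vps13d, Vps13c, Atg2b, Vps13b and Vps13a, and the highest and the lowest differed by 2.06 on the log2 scale, or 4.16-fold. The median of all genes on the per-kilobase scale was 2.17 log2 CPM per kb, and only Atg2a was above it. Per kilobase of coding sequence none of the 6 was above the median of all genes, 3.41 log2 CPM per kb. The genes fell into a higher pair, Atg2a and Vps13d, an intermediate Vps13c, and a lower group of Atg2b, Vps13b and Vps13a, which lay within 0.11 of each other on the log2 per-kilobase scale. Without a value for each mouse, none of these steps can be compared with replicate spread.

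**Figure D1:**
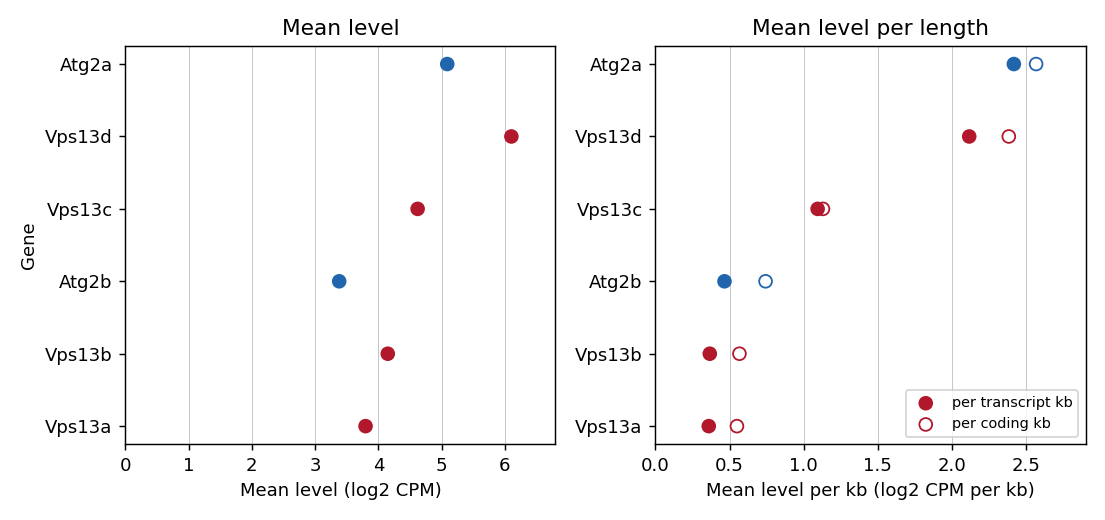
Mean level of each VPS13 (red) and ATG2 (blue) gene over the 6 samples, as log2 CPM (left) and as log2 CPM per kb of longest transcript (right, filled) or of coding sequence (right, open). Each point is the single mean of a gene, with no error bar because the values per mouse were not analysed; Vps13d leads on the left at 6.10, and Atg2a and Vps13d lead on the right at 2.42 and 2.12.

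VPS13D, encoded by Vps13d (ENSMUSG00000020220, chromosome 4, 144972622 to 145195005, minus strand), acts at mitochondria and peroxisomes and is needed for the normal size and clearance of mitochondria. Its mean level of 6.10 log2 CPM was that of 68.7 CPM, the highest of the group and rank 2031 of all listed genes. Corrected for its 15.85 kb transcript, the level was 2.12 log2 CPM per kb, above 48.9% of all genes with a length. Before correction Vps13d was above 85.5% of genes, and per kilobase of coding sequence above 33.9%, so its place in the table depends on the length used. Among the 1396 genes with the longest transcripts, which are closer to it in length, its uncorrected level was above 84.7%. Per kilobase, Vps13d was 3.38-fold higher than Vps13a and 2.03-fold higher than Vps13c.

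VPS13A, encoded by Vps13a (ENSMUSG00000046230, chromosome 19, 16615366 to 16780933, minus strand), binds the endoplasmic reticulum to mitochondria and to the plasma membrane, where it pairs with the scramblase XK. Vps13a was listed at 3.80 log2 CPM, or 13.9 CPM. Its per-kilobase level of 0.36 log2 CPM per kb was the lowest of the 6 genes and above 24.0% of all genes. An annotated pseudogene on the opposite strand, Gm9806, overlaps the exons of Vps13a by 264 bases, and the 2.12% of the 31-base words of its transcript that also occur in another gene all occur in that pseudogene.

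VPS13B, encoded by Vps13b (ENSMUSG00000037646, chromosome 15, 35371160 to 35931229, plus strand), works at the Golgi apparatus, and its loss in people causes Cohen syndrome. Spanning 560.1 kb, Vps13b is the widest gene of the group. It was listed at 4.15 log2 CPM, or 17.7 CPM. Per kilobase it stood at 0.37 log2 CPM per kb, 0.01 above Vps13a on the log2 scale. Its exons overlap those of Cox6c, which encodes a subunit of cytochrome c oxidase, by 250 bases on the opposite strand, and those of the antisense gene Gm48960 by 368 bases. Other annotated genes hold 3.90% of the 31-base words of its transcript. Strand use in the authors' counting is not given in the sources used here, so how reads from these overlaps were assigned is not known. The same holds for the overlaps of Vps13a and Atg2b.

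VPS13C, encoded by Vps13c (ENSMUSG00000035284, chromosome 9, 67840396 to 67995638, plus strand), links the endoplasmic reticulum to late endosomes, lysosomes and lipid droplets, and inherited loss of the human gene is a cause of early Parkinson's disease. Vps13c was listed at 4.62 log2 CPM, or 24.6 CPM, above 61.4% of listed genes. Per kilobase it reached 1.09 log2 CPM per kb, above 32.3% of genes and 1.66-fold higher than Vps13a. No 31-base word of its transcript occurs in another annotated gene, and no annotated gene overlaps its exons. Its longest coding sequence, taken over all its annotated transcripts, has 97.6% of the length of its longest transcript, the highest such value of the 6 genes.

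ATG2A and ATG2B overlap in function, and either can supply lipid to the forming autophagosome. Their genes were far apart in level. Atg2a (ENSMUSG00000024773, chromosome 19, 6241668 to 6262335, plus strand) was listed at 5.09 log2 CPM, or 34.0 CPM, and Atg2b (ENSMUSG00000041341, chromosome 12, 105616136 to 105685211, minus strand) at 3.38 log2 CPM, or 10.4 CPM. Per kilobase, Atg2a was at 2.42 and Atg2b at 0.47 log2 CPM per kb, so Atg2a was 3.87-fold higher. Atg2a, whose gene spans 20.7 kb, was above 54.2% of all genes on that scale, and Atg2b above 25.0%. Per kilobase of coding sequence the values were 36.5% and 16.6%, so Atg2a was above the middle of the table only with transcript length or no correction. The exons of Atg2b overlap those of Gskip, a regulator of the kinase GSK3, by 383 bases on the opposite strand, and other genes hold 4.78% of its 31-base words, the largest share of the group. Atg2a shares none. The transcripts also differ in base composition, at 60.0% G and C for Atg2a and 50.3% for Atg2b, while those of the VPS13 genes lay between 40.1% in Vps13a and 49.2% in Vps13d.

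**Figure D2:**
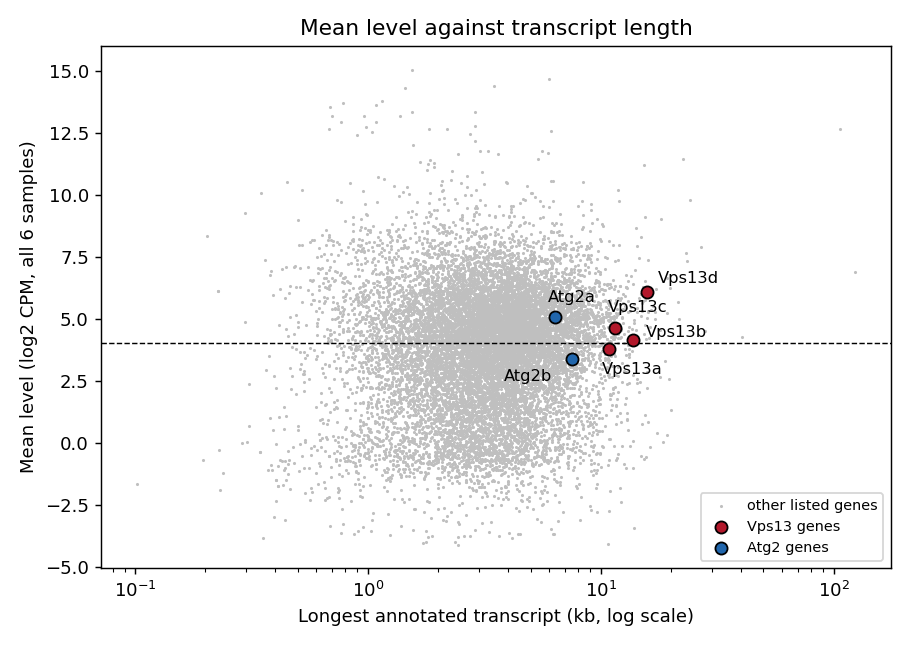
Mean level (log2 CPM over the 6 samples) against the length of the longest annotated transcript (kb, log axis) for 13944 listed genes (grey), with the VPS13 genes in red and the ATG2 genes in blue. The dashed line is the median level of the genes drawn; the 4 VPS13 genes lie at the long end, between 10.84 and 15.85 kb, and straddle that line.

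Across all listed genes with a length, the uncorrected level hardly followed transcript length (Spearman's rho 0.069 across 13944 genes, which are not independent replicates). Dividing such a level by length makes the per-kilobase level fall with length by construction (rho -0.269), which bears on every comparison of these long genes with shorter ones. The 1396 genes with the longest transcripts had a median of 1.28 log2 CPM per kb. The 6 bridge genes had a median of 0.78, and 60.4% of those long genes were above that value. On the uncorrected scale 51.4% of the long genes were above the bridge genes' median of 4.38 log2 CPM.

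The other bridge-like lipid transfer genes of the mouse, Bltp1, Bltp2, Bltp3a and Bltp3b, were all found, under the older symbols 4932438A13Rik, 2610507B11Rik, Uhrf1bp1 and Uhrf1bp1l. They encode proteins of the same rod-like build that act mainly at contacts with the plasma membrane and endosomes. Bltp2 was listed at 8.34 log2 CPM and stood at 5.44 log2 CPM per kb, above 92.1% of all genes and above each of the 6 VPS13 and ATG2 genes. Bltp1, whose transcript of 15.88 kb is about as long as that of Vps13d, was at 1.35 log2 CPM per kb. Bltp3a at 1.96 and Bltp3b at 1.87 lay between Vps13c and Vps13d per kilobase of transcript, and above Vps13d per kilobase of coding sequence, at 2.96 and 2.43 against 2.38. The per-kilobase values of all 4 relatives were above the median of the VPS13 and ATG2 genes.

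Genes for proteins that work beside the bridges were listed at higher medians on each scale. All 17 genes of a list of partners were found, with a median of 4.01 log2 CPM per kb, and 14 of them were above Atg2a, the highest bridge gene on that scale. On the uncorrected scale 8 of the 17 were above Vps13d, the highest there, and the partners' median was 5.61 log2 CPM against 4.38 for the bridge genes. The highest was Rab7, the late endosome GTPase that recruits VPS13C, at 6.87 log2 CPM per kb. The lowest was Atg9b at -2.44, while Atg9a, the other gene of the scramblase that receives lipid from ATG2, was at 4.59. Xk, the partner of VPS13A at the plasma membrane, was at 0.22 log2 CPM per kb, next to the 0.36 of Vps13a and below all 6 bridge genes, whereas per kilobase of its short coding sequence it was at 2.14, above 4 of them. The endoplasmic reticulum scramblases Vmp1 and Tmem41b were at 5.07 and 2.94. Among WIPI adaptors, which tie ATG2 to the autophagosome membrane, the per-kilobase levels ran from 3.24 for Wipi2 to 4.51 for Wipi1. Wdr45, the WIPI protein that binds ATG2 most firmly, stood at 4.01 log2 CPM per kb. Of the Miro genes, whose proteins recruit VPS13D to mitochondria, Rhot1 was at 3.17 and Rhot2 at 4.55.

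The 10 genes that start autophagy upstream of ATG2 had a median of 3.51 log2 CPM per kb, and 8 of them were above Atg2a. The highest was Atg101, a subunit of the ULK1 kinase complex, at 4.62 log2 CPM per kb, and the lowest Pik3r4, the regulatory subunit of the lipid kinase complex, at 1.42. Atg2b stood below each of the 10 genes per kilobase. Without length correction the list's median was 5.14 log2 CPM, Atg2b at 3.38 was next to Atg14 at 3.37, and 3 of the 10 (Ulk2, Rb1cc1 and Becn1) were above Vps13d.

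Shuttle proteins move single lipids between membranes and are the other main route of lipid transfer at contact sites. Of 28 such genes 27 were found, and Esyt3 was not found under that symbol. Their median was 2.65 log2 CPM per kb, and 23 of the 27 were above the median of the bridge genes. Without length correction the shuttles' median was 4.81 log2 CPM against 4.38, a gap of 0.42 in place of 1.87 on the log2 scale, and 16 of the 27 were above. The highest was Pitpna, a phosphatidylinositol transfer protein, at 5.54 log2 CPM per kb, and the lowest Gramd1c, a carrier of cholesterol, at -1.61. Per kilobase, the share above the bridge genes' median was 85.2% for the shuttle genes, beside 88.2% of the partners and 71.5% of all listed genes with a length. Uncorrected, the shares were 59.3%, 82.4% and 43%. The bridge genes have the longest transcripts of these lists, with a median of 11.18 kb against 4.04 kb for the shuttles and 3.56 kb for the partners, so division by length lowers them more than either list.

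**Figure D3:**
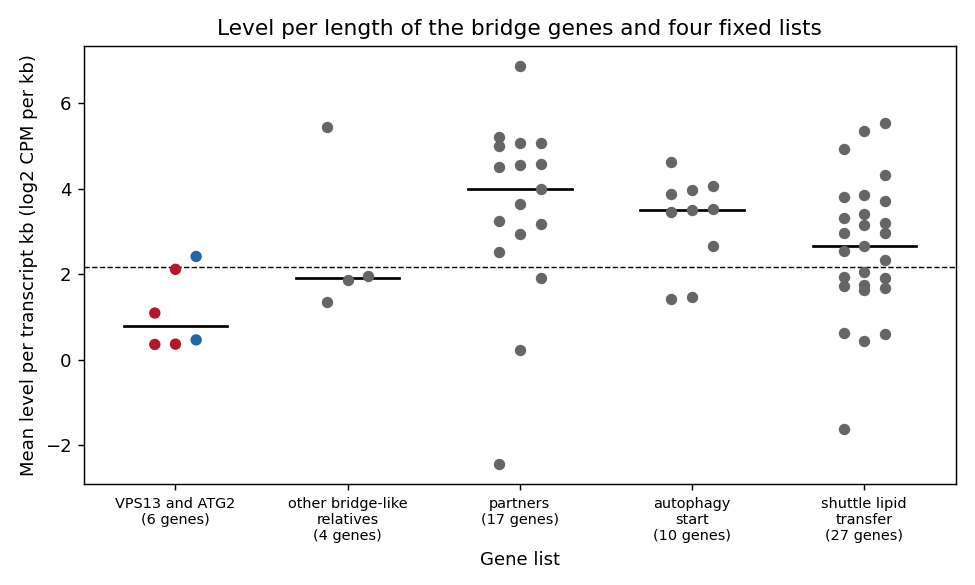
Mean level per kb of longest transcript (log2 CPM per kb) for the VPS13 (red) and ATG2 (blue) genes and for each listed gene of 4 other lists (grey). Points are single genes, thick lines are list medians and the dashed line is the median of all listed genes, 2.17; the bridge genes' median of 0.78 is the lowest of the 5 medians drawn, and only Atg2a lies above the dashed line. With coding length none of the 6 lies above the median of all genes, and without length correction the bridge genes' median is above it, at 4.38 against 4.03 log2 CPM.

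The table fitted its label of muscle. All 8 muscle fibre markers were listed, between 10.56 and 14.65 log2 CPM. Of 5 leukocyte and macrophage markers, 4 were found, between 4.40 and 6.15. Adgre1 was not found under that symbol. As some genes are listed under older symbols, it may be present under another name. None of 6 eosinophil markers (Siglecf, Epx, Prg2, Ear1, Ccr3 and Il5ra) was found under these symbols, so they gave no check of the genotype labels. In whole muscle, fewer cells of a type and less RNA per cell cannot be told apart, and the cells that contributed the VPS13 and ATG2 transcripts were not tested. As there is 1 mean per gene, no genes with a similar pattern over samples could be named.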

How the data were processed

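RNA from 6 injured quadriceps muscles was selected for poly(A) tails and sequenced. The authors used Kallisto on the read pairs, ensembldb to name genes, edgeR for CPM with a minimum of 1 CPM in 3 or more samples, TMM normalization on a log scale, and limma for the genotypes. The labels name the build GRCm39, and the transcript index is not given in the sources used here. Whether the imported abundances were counts or values already scaled for length is not given either. The deposited log2 values used are the authors' mean log2 CPM per gene, taken to cover all 6 samples as in limma's result tables. The other 5 numeric columns hold the authors' own comparison (fold change, moderated t, p-values, log odds) and were not used. Depth is unknown, the fit planned on values per sample was not run, and proteins were not compared.

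Of 14015 symbols, 13458 matched GENCODE M21 (GRCm38, not the build of the labels) directly and 486 through older symbols. Positions, exons and lengths are from that annotation. The per-kilobase level is the mean log2 CPM minus log2 of the longest transcript in kb. That transcript was taken from all annotated transcripts of a gene, coding or not, so for some genes it may not be the coding one. The coding length is the longest over all transcripts of a gene. A percentile is the percent of genes below a value, and CPM values are back-transformed means. Words of 31 bases were compared on both strands with transcripts of other genes. The calculations were tested on simulated data (Python 3.11.15, pandas 2.3.3, numpy 2.4.6, scipy 1.17.1). Members and lists were chosen with earlier results of these data known. By rule, all members and relatives were named, with the highest and lowest genes of each list and those not found. Atg9a, Xk, Vmp1, Tmem41b, Wdr45, Rhot1, Rhot2 and the extremes of the WIPI genes were added for their roles after their values were seen. Rb1cc1 and Becn1 were added because their uncorrected levels were above that of Vps13d.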

Additional observations from a re-analysis of the deposited data

How the results depend on the processing

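No paired analysis was possible because only 1 mean per gene over all samples was used, and for the same reason the limma fit, the fits leaving out each replicate, and the other filters and pseudocounts were not run. The protein comparison was not run. The number of bridge genes above the median level of all genes was 4, and it was 3 among genes with a mean of at least 1 log2 CPM and 4 among protein-coding genes. The number above the median per kilobase was 1 with transcript length, 0 with coding length and 4 with no length correction, so a statement on where these genes stand among all genes depends on the length used. With coding length the per-kilobase order of the 6 genes was kept at all 6 places, and the highest and lowest differed 4.05-fold. With no correction 1 of 6 genes kept its place. The medians of the 4 other lists were above that of the bridge genes on all 3 scales, by least with no correction and by most with coding length.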
